A study of Mus musculus with 10 samples.

Results

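The 8 genes of the axis between the chemokine XCL1 and cross-presenting dendritic cells (DCs) followed in WEHI-164 tumors were Xcl1, Xcr1, Clec9a, Batf3, Zbtb46, Wdfy4, Flt3l and Flt3. They were picked by gene symbol, and the choice was made with the difference between responding and non-responding tumors already known, so that difference is given for them as a description without a test. All 8 symbols had a single row in the table of 35958 features, and all 8 were among the 15767 features that passed the filter on low counts. WEHI-164 is a mouse fibrosarcoma line, here grown under the skin of wild-type female BALB/c mice. The tumors were partly removed by surgery, and the sequenced RNA is that of the piece removed before a hydrogel carrying poly(I:C), a synthetic double-stranded RNA, was laid on the remaining tumor. All 10 pieces were therefore untreated. The groups were assigned later from the outcome, with 5 responders (tumors 5, 9, 10, 11 and 12), which regressed completely, and 5 non-responders (tumors 1, 2, 3, 6 and 7), whose growth was not delayed. Every tumor came from the same transplanted line, and the pieces were bulk tissue holding tumor cells and host cells together.

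XCL1 is a chemokine made mainly by natural killer (NK) cells and activated CD8+ T cells. Its receptor XCR1 is found almost only on type 1 conventional DCs (cDC1), the subset that takes up dead cell material and presents it on MHC class I to CD8+ T cells, which is called cross-presentation. BATF3 and IRF8 are transcription factors that cDC1 need to develop, ZBTB46 marks the conventional DC lineage, CLEC9A is a cDC1 receptor for dead cells, and WDFY4 is needed for cross-presentation of cell-bound antigen. FLT3 is the receptor through which the growth factor FLT3 ligand, encoded by Flt3l, drives DC development.

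The upstream sequences of the ligand and receptor that give the axis its name, of the cDC1 receptor gene and of the DC growth factor gene are shown, because motifs were found in the sequences of both ligand genes, Xcl1 and Flt3l, and in neither Xcr1 nor Clec9a. Each run is the 250 bases before the RefSeq gene start in GRCm38.p6, written 5′ to 3′ on the strand of the gene, at chr1:164935523-164935772 (minus strand) for Xcl1, chr9:123862030-123862279 (minus) for Xcr1, chr6:129408612-129408861 (plus) for Clec9a and chr7:45136433-45136682 (minus) for Flt3l. Capitals mark matches to the motifs searched.
Xcl1: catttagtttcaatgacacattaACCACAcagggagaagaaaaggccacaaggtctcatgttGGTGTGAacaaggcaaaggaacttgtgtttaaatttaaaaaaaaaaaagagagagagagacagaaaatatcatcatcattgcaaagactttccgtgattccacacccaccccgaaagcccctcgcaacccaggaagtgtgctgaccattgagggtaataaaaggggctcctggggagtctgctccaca
Xcr1: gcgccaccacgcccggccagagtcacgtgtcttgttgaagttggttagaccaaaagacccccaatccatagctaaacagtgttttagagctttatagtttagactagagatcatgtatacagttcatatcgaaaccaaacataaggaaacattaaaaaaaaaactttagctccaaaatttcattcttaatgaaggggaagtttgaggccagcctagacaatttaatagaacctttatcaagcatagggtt
Clec9a: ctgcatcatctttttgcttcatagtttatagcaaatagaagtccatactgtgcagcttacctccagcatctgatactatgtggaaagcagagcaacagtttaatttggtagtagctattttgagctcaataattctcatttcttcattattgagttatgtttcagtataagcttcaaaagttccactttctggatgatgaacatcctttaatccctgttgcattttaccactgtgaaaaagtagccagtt
Flt3l: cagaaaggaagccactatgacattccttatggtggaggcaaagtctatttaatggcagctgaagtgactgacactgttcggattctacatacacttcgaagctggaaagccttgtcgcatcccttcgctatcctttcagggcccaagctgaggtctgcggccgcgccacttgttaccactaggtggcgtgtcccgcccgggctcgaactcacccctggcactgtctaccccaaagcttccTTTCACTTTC
A set of 5 motifs was searched on both strands in windows from 250 bases before to 50 bases after the start, and all 8 genes had a window. Xcl1 held the T-box letters GGTGTGA, with their first base at position -188 from the start, and the RUNX letters TGTGGT on the other strand at -227, which appear above as ACCACA. T-box and RUNX factors act in NK cells and CD8+ T cells. GGTGTGA occurred in 3.98% and TGTGGT in 16.8% of 32851 RefSeq windows of the same length. Flt3l held the interferon-stimulated response element (GAAA, any 2 bases, GAAA) on the other strand at -10, a string found in 3.44% of all windows. Of the genes not shown, Batf3 held the PU.1 letters GAGGAA at -153 (28.3% of all windows), and Wdfy4 held TGTGGT at -121. Zbtb46 held the AP-1 or BATF letters TGANTCA at -61 (7.81%), a string that reads the same on both strands. The RefSeq window of Zbtb46, chr2:181424339-181424638, lies inside the gene as drawn by GENCODE vM21 (chr2:181387762-181459426, minus strand). Its match is therefore not upstream of the GENCODE start. The windows of Batf3 and Wdfy4 also lie inside their GENCODE genes. None of the 5 motifs was found in the windows of Xcr1, Clec9a or Flt3. Such matches are short strings that describe the sequence only. The sequences shown were picked with the outcome of the search known. The share of all windows holding any of the 5 motifs is not given. Nothing is therefore read from which genes had a match.

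Values are in CPM, which scale the estimated counts of a gene to the normalized library total of its tumor. The totals ran from 16002949 to 31160790 estimated counts. Means are given ± SD with n = 5 tumors per group, and fold changes are on the log2 scale for responders over non-responders with the standard error (SE) of the edgeR fit. The background of this contrast was low. With edgeR's quasi-likelihood test 0 of 15767 features (0%) had an adjusted p under 0.05, 1294 (8.21%) had an unadjusted p under 0.05, and DESeq2 and limma-voom gave 4 and 0 features with an adjusted p under 0.05. DESeq2 gave no adjusted p to 14367 features, all 8 axis genes included, so it could not have called them. The median log2 fold change of all features was -0.004, and 48.6% were higher in responders.

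Xcl1 was the axis gene with the widest gap between the groups. In responders 5, 9, 10, 11 and 12 it measured 1.86, 2.31, 1.78, 1.89 and 2.19 CPM. In non-responders 1, 2, 3, 6 and 7 it measured 1.01, 0.965, 1.16, 1.49 and 1.10 CPM. Each responder therefore lay above each non-responder, with responder 10 and non-responder 6 nearest to each other. The means were 2.01 ± 0.232 and 1.14 ± 0.207 CPM, a log2 fold change of 0.81 (SE 0.17) or 1.75-fold. Separation of this kind with responders higher was seen for 53 of 15767 features (0.336%), and separation with responders lower for 93 (0.59%); since Xcl1 was chosen on this contrast, nothing is read from these shares. The level was low, with 23 to 58 estimated counts per tumor. Leaving out each tumor in turn gave log2 fold changes from 0.75 to 0.92. The spread between tumors of a group (coefficient of variation 15.2%) was close to the counting error expected at the mean count (16.4%). A non-coding gene, Gm20743, overlaps Xcl1 (chr1:164931644-164935527, GRCm38) on the opposite strand.

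Xcr1, which encodes the receptor, showed no such gap. Responders 5, 9, 10, 11 and 12 measured 0.932, 0.876, 1.23, 1.82 and 0.729 CPM, and non-responders 1, 2, 3, 6 and 7 measured 1.19, 0.893, 0.956, 1.13 and 1.53 CPM. The highest and the lowest values, in tumors 11 and 12, were both responders, and the groups overlapped throughout. The means were 1.12 ± 0.434 and 1.14 ± 0.248 CPM, with a log2 fold change of -0.01 (SE 0.27). Tumor 11 carried much of the responder mean, and without it the log2 fold change was -0.28. Counts ran from 14 to 56 per tumor, the lowest among the axis genes. They were not whole in all 10 tumors (further than 0.01 from a whole number), so part of the reads was shared with other transcripts. The ratio of Xcl1 to Xcr1 CPM was 2.02 ± 0.815 in responders and 1.04 ± 0.249 in non-responders, with ranges of 1.04 to 3.0 and 0.718 to 1.32 that overlapped.

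**Figure D1:**
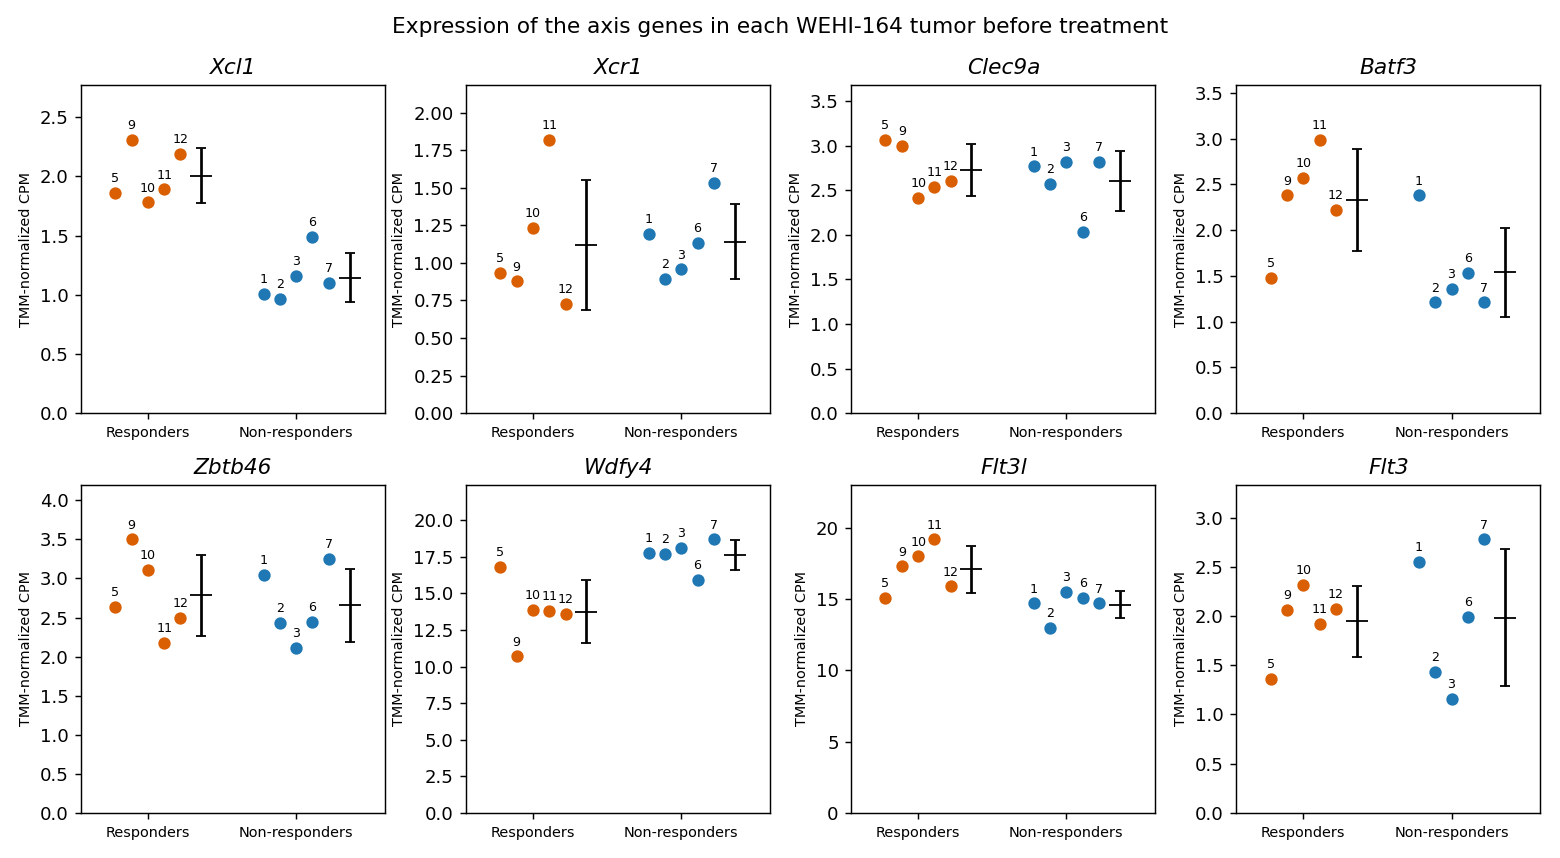
Normalized CPM (y axis, from 0) of the 8 axis genes in each tumor, with responders in orange and non-responders in blue, the tumor number above each point, and the group mean ± SD (n = 5) as a black bar. The groups are apart for Xcl1, with responders from 1.78 to 2.31 CPM and non-responders from 0.965 to 1.49 CPM, and overlap for the other 7 genes.

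Clec9a, the receptor by which cDC1 sense dead cells, was even across the tumors. Responders 5, 9, 10, 11 and 12 held 3.07, 3.0, 2.42, 2.54 and 2.61 CPM, and non-responders 1, 2, 3, 6 and 7 held 2.77, 2.57, 2.82, 2.03 and 2.82 CPM. All but non-responder 6 lay between 2.42 and 3.07 CPM. The log2 fold change was 0.06 (SE 0.14), and it was -0.01 without non-responder 6. The spread within groups was 11.8%, no wider than the counting error of 12.6%, so differences between tumors were not detectable at this depth. Clec1b overlaps Clec9a on the same strand and had 6 to 16 counts per tumor, against 45 to 79 for Clec9a.

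Batf3, the transcription factor gene, was higher on average in responders but overlapped. Its values were 1.48, 2.38, 2.57, 2.99 and 2.22 CPM in responders 5, 9, 10, 11 and 12, and 2.38, 1.21, 1.36, 1.53 and 1.21 CPM in non-responders 1, 2, 3, 6 and 7. Tumors 10 and 11 lay above all non-responders, whereas responder 5 lay among them and non-responder 1 among the responders. The means were 2.33 ± 0.556 and 1.54 ± 0.486 CPM (log2 fold change 0.60, SE 0.23). That value ran from 0.49 without responder 11 to 0.81 without non-responder 1.

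Zbtb46, the marker of the conventional DC lineage, gave 2.64, 3.50, 3.11, 2.18 and 2.49 CPM in the same order of responders and 3.04, 2.43, 2.11, 2.44 and 3.25 CPM in non-responders. The order of tumors mixed both groups, and the log2 fold change was 0.05 (SE 0.17).

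Wdfy4, the cross-presentation gene, was the axis gene that was lower in responders by more than its standard error. Responders 5, 9, 10, 11 and 12 had 16.8, 10.7, 13.9, 13.8 and 13.6 CPM, and non-responders 1, 2, 3, 6 and 7 had 17.8, 17.7, 18.1, 15.9 and 18.7 CPM. Responders other than tumor 5 lay below all non-responders, and tumor 5 lay between non-responders 6 and 2. The means were 13.8 ± 2.17 and 17.6 ± 1.05 CPM, a log2 fold change of -0.35 (SE 0.10) that stayed between -0.43 and -0.27 when each tumor was left out. With 171 to 494 counts per tumor, its spread within groups (11.9%) was 2.31 times the counting error (5.16%). Wdfy4 has a transcript of 10158 bases, and the 853 features with a coding transcript over 8000 bases had a median log2 fold change of -0.01. The median was 0.02 for features of up to 2000 bases and -0.02 for those between. An effect of length on Wdfy4 itself was not tested. The gene Lrrc18 lies within it on the opposite strand, with 0 to 5 counts per tumor. Relative to Clec9a, Wdfy4 stood at 5.09 ± 0.873 in responders and 6.83 ± 0.583 in non-responders as a ratio of CPM. The ranges of 3.56 to 5.73 and 6.41 to 7.82 did not overlap. Since Wdfy4 was chosen on this contrast, nothing is read from that gap.

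Flt3l, the growth factor gene, had 15.1, 17.3, 18.0, 19.2 and 15.9 CPM in responders 5, 9, 10, 11 and 12. Non-responders 1, 2, 3, 6 and 7 had 14.7, 13, 15.5, 15.1 and 14.7 CPM. Responders 9, 10, 11 and 12 exceeded all non-responders, and responder 5 did not. The log2 fold change was 0.23 (SE 0.08), or 17.1 ± 1.64 against 14.6 ± 0.951 CPM. Its counts were likewise not whole in all 10 tumors, and the protein-coding gene Gm45713 overlaps it on the same strand. Flt3, its receptor, measured 1.36, 2.06, 2.32, 1.92 and 2.07 CPM in responders, whereas the non-responders gave 2.55, 1.43, 1.16, 1.99 and 2.78 CPM. All responders fell inside the range of the non-responders (log2 fold change -0.04, SE 0.24). Across the 10 tumors Flt3l and Flt3 were weakly related (Pearson r = 0.21, permutation p = 0.558, adjusted p = 0.669 over 6 relations; Spearman rho = -0.0788, permutation p = 0.838, adjusted p = 0.838).

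Per length, using the median coding transcript of GENCODE vM21, the mean level over the 10 tumors was 18.6 CPM per kilobase for Flt3l. Wdfy4, Clec9a and Xcl1 followed at 3.10, 3.07 and 3.01 CPM per kilobase, with the opposite order in the 2 groups at this choice of transcript. In responders Xcl1 stood at 3.83, Clec9a at 3.15 and Wdfy4 at 2.72 CPM per kilobase, with Xcl1 above Clec9a and Clec9a above Wdfy4 in 5 of 5 tumors. In non-responders Wdfy4 stood at 3.48, Clec9a at 3.0 and Xcl1 at 2.19 CPM per kilobase, with Wdfy4 above Clec9a in 5 of 5 tumors and Clec9a above Xcl1 in 4 of 5. Some of these gaps were small, as in responder 5, where Xcl1 stood at 3.57 and Clec9a at 3.54 CPM per kilobase, and both Xcl1 and Wdfy4 were chosen on the contrast of the groups. Batf3 stood at 2.41, Zbtb46 at 1.18, Flt3 at 0.537 and Xcr1 at 0.253 CPM per kilobase. Xcl1 exceeded Batf3 in 8 of 10 tumors, and from Batf3 down each gene exceeded the next in 10 of 10. With the longest transcript in place of the median, Wdfy4 stood at 1.55, Clec9a at 0.809 and Zbtb46 at 0.512 CPM per kilobase, so their places in the order depend on the transcript used. The opposite order of the groups was then gone, since Xcl1 and Wdfy4 each exceeded Clec9a in 10 of 10 tumors.

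**Figure D2:**
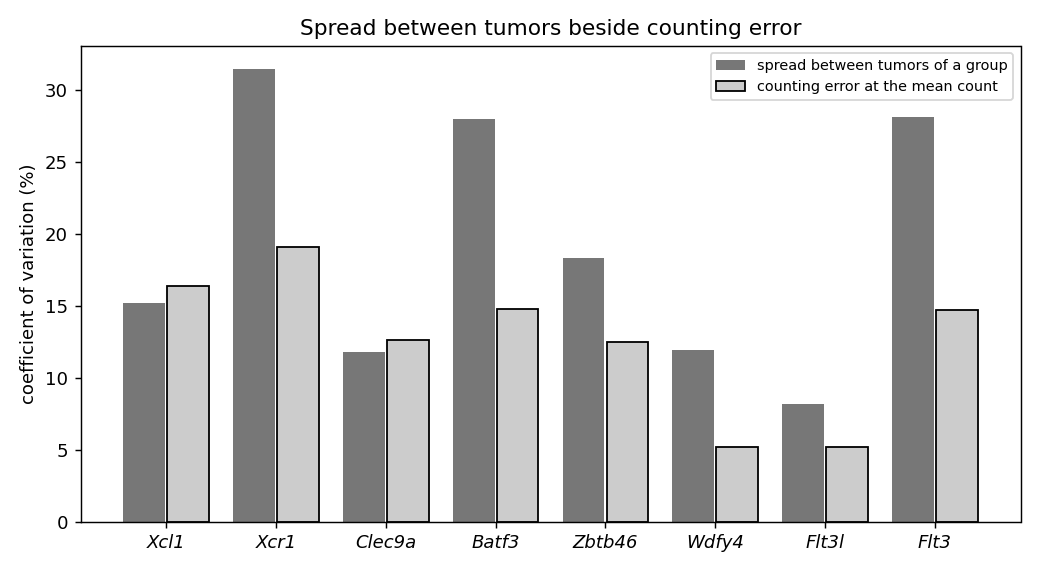
Coefficient of variation in percent (y axis, from 0) for the 8 axis genes, as the spread between tumors of a group (dark bars) and as the counting error at the mean count (light bars). The dark bar is the lower of the pair for Xcl1 (15.2% against 16.4%) and Clec9a (11.8% against 12.6%), and it exceeds the light bar for the other 6 genes, by 2.31 times for Wdfy4.

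Genes of the cells around this axis were described from 15 lists of 147 genes, of which 139 passed the filter. The lists were written with earlier results of these data known, and counts are set beside the share of all features with an unadjusted p under 0.05, which was 8.21%. None of their genes passed the edgeR test after adjustment over all 10 tumors. Without responder 5, 9 features passed it, of which Gzmb is in these lists. In bulk tissue a lower value can mean fewer cells of a type or less RNA per cell, and these cannot be told apart.

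Among 17 further cDC1 genes, 16 passed the filter, 10 were higher and 6 lower in responders, and their median log2 fold change was 0.11 (0.07 without non-responder 2). Unadjusted p-values under 0.05 were found for 4 higher genes and 1 lower gene. Irf8, which cDC1 need to develop, is also made by other immune cells and was the most abundant of the list. It measured 96.5 ± 16.5 CPM in responders against 70.8 ± 13.7 CPM in non-responders (log2 fold change 0.45, SE 0.14, edgeR adjusted p = 0.58), with 4 responders above all non-responders. Rab7b, an endosomal GTPase gene, had the smallest p of the list and was lower in each responder than in each non-responder, at 44.0 ± 1.45 against 50 ± 2.95 CPM (log2 fold change -0.18, SE 0.05, edgeR adjusted p = 0.58). Tlr3, the endosomal sensor of double-stranded RNA, stood at 19.6 ± 2.32 and 18.3 ± 1.56 CPM. The adhesion genes Cadm1 and Itgae had log2 fold changes of -0.23 (SE 0.19) and 0.17 (SE 0.18). The summed level of the list ran from 353 to 426 CPM in responders and from 307 to 379 CPM in non-responders. This sum is weighted to abundant genes such as Irf8, Rab7b and Id2 (59.8 ± 14.5 against 44.7 ± 9.52 CPM). Xcr1 and Clec9a had means of 1.13 and 2.66 CPM over the 10 tumors. Which cells made the RNA of the listed genes was not tested. Gpr33 did not pass the filter.

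Xcr1 and Clec9a, both cDC1 markers, were compared with these 16 genes, whose mean log2(CPM + 1) was used as their level. For Xcr1 the Pearson r over 10 tumors was 0.511 (permutation p = 0.132, adjusted p = 0.264) and Spearman's rho was 0.333 (permutation p = 0.349, adjusted p = 0.551). Measured as deviations from the group means, r was 0.633 (exact permutation p = 0.0252, adjusted p = 0.151) and rho was 0.733 (exact permutation p = 0.0194, adjusted p = 0.117). The pooled r was 0.288 and rho 0.0833 without responder 11 alone, and the pooled r was 0.16 without the 2 tumors farthest from the median. Without responder 9 the pooled r was 0.62 and rho 0.633, and with a pseudocount of 0.25 the pooled rho was 0.564. For Clec9a r was 0.0173 (permutation p = 0.96, adjusted p = 0.96), and rho was -0.127 (permutation p = 0.734, adjusted p = 0.838). Since Clec9a varied by no more than its counting error, a relation of Clec9a to these genes was not detectable at this depth. The difference between the 2 relations was not tested. Xcr1 and Clec9a themselves had an r of -0.212 over the 10 tumors, given as a description.

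The 5 features whose levels were most like those of Xcr1, among 13065 compared, were Myh1 (r = 0.918), Mylpf (0.909), Casq1 (0.896), Actn3 (0.885) and Sac3d1 (0.875). The first 4 are genes of fast skeletal muscle fibres. Myh1, a myosin heavy chain gene, measured 7.54, 7.88, 10.9, 18.6 and 5.91 CPM in responders 5, 9, 10, 11 and 12 and 11.8, 6.54, 6.19, 14.4 and 19.8 CPM in non-responders 1, 2, 3, 6 and 7. Responder 11 and non-responder 7, the tumors highest in Xcr1, were also the highest in Myh1, and responder 12 was the lowest in both. Without responder 11 and non-responder 7 the r of Xcr1 was 0.847 with Myh1, 0.811 with Mylpf, 0.789 with Casq1 and 0.884 with Actn3. Since these features were picked as the highest of 13065 values over the same 10 tumors, high values are given by the choice, and nothing is read from their size. The 4 muscle genes correlated with Flt3 at 0.295 (Casq1) to 0.637 (Myh1), with Batf3 at 0.143 (Mylpf) to 0.474 (Actn3), with Zbtb46 at -0.231 (Casq1) to 0.187 (Myh1) and with Clec9a at -0.464 (Mylpf) to -0.232 (Casq1). These values describe 10 tumors, and the part of muscle in the Xcr1 signal was not tested. For Clec9a the most alike feature was Exoc2, an exocyst gene (r = 0.919), a value picked as the highest of 13065 for a gene that varied by no more than its counting error, from which nothing is read.

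**Figure D3:**
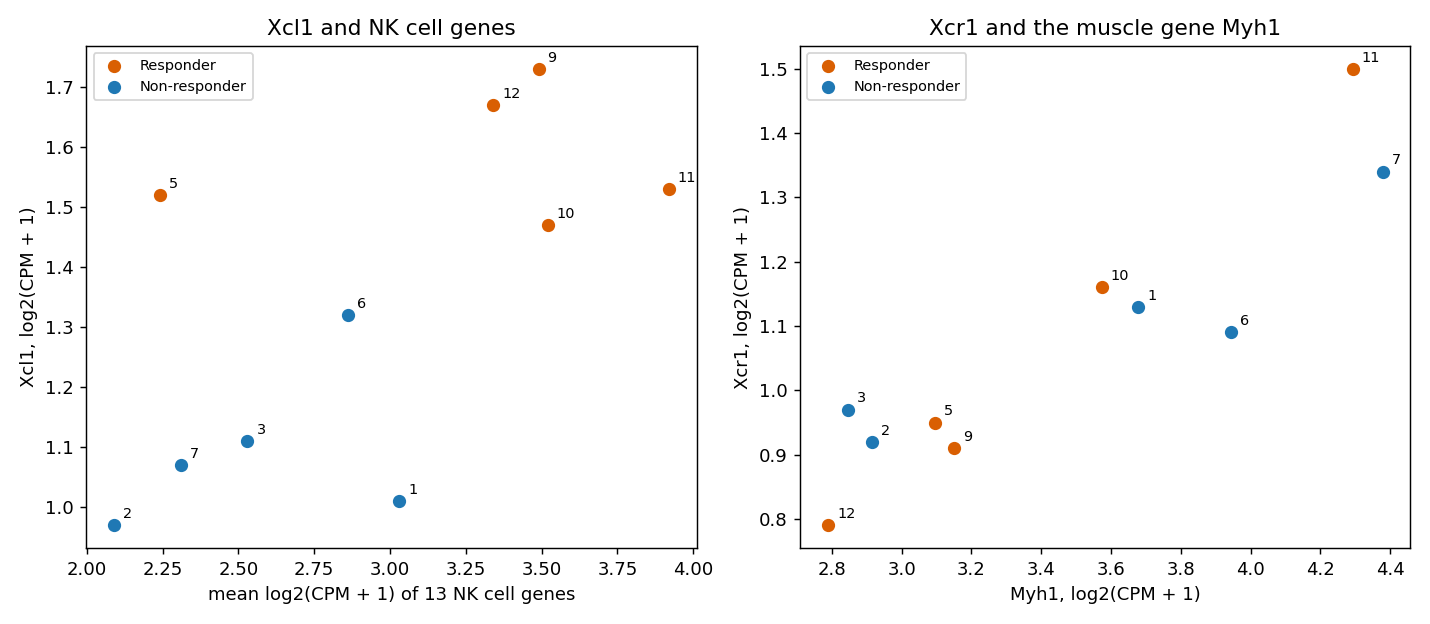
Left, Xcl1 against the mean of 13 NK cell genes, and right, Xcr1 against the muscle gene Myh1, each point a tumor with its number, both axes in log2(CPM + 1), responders in orange and non-responders in blue. Responder 5 has high Xcl1 with low NK cell genes, and responder 11 and non-responder 7 are high in both Xcr1 and Myh1, a gene picked for its likeness to Xcr1 in these tumors.

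The possible sources of Xcl1 were described next. Of 16 NK cell genes 13 passed the filter, and Klra4, Klra7 and Klra8 did not. All 13 were higher in responders, 11 of them with an unadjusted p under 0.05, and the median log2 fold change was 0.91. Granzyme B (Gzmb), a killing enzyme and the most abundant of the list, measured 64.3 ± 31.6 CPM in responders against 23.2 ± 7.27 CPM in non-responders (log2 fold change 1.48, SE 0.35, edgeR adjusted p = 0.58). The NK receptor genes Ncr1 and Klrb1c had log2 fold changes of 0.88 (SE 0.35) and 0.89 (SE 0.32), and Klre1 and Klrk1 of 0.41 (SE 0.24) and 0.33 (SE 0.14). Many of these genes, granzymes included, are also made by CD8+ T cells. The summed level was 76.1, 244, 267, 417 and 242 CPM in responders 5, 9, 10, 11 and 12 and 153, 68.0, 96.1, 137 and 76.6 CPM in non-responders 1, 2, 3, 6 and 7. Responder 5 was as low as the non-responders, and its Xcl1 of 1.86 CPM exceeded theirs. Its summed level of the T cell genes described below, 21.0 CPM, was also below the non-responder range of 21.6 to 46.8 CPM. The source of Xcl1 was not tested. Over the 10 tumors Xcl1 and the mean of the NK cell genes had a Pearson r of 0.65 (permutation p = 0.0475, adjusted p = 0.264) and a Spearman rho of 0.624 (permutation p = 0.0607, adjusted p = 0.343). This value holds the gap between the groups, since Xcl1 separates them. It was 0.817 without responder 5 and 0.541 without the 2 tumors farthest from the median. Over deviations from the group means r was 0.257 (exact permutation p = 0.485, adjusted p = 0.777) and rho was 0.176 (exact permutation p = 0.649, adjusted p = 0.923). Xcl1 varied within groups by no more than its counting error, so a relation within groups was not detectable at this depth and the low values do not show that there is none.

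All 10 T cell genes were higher in responders, with a median log2 fold change of 0.39 (0.61 without responder 5 and 0.22 without responder 11) and 1 unadjusted p under 0.05, that of Lck, a kinase of the T cell receptor pathway (0.56, SE 0.22, edgeR adjusted p = 0.586). Cd8a measured 5.15 ± 1.21 and 4.74 ± 2.01 CPM, Cd8b1 1.92 ± 0.771 and 1.43 ± 0.701 CPM. Cd3e and Cd3d had log2 fold changes of 0.33 (SE 0.28) and 0.14 (SE 0.26). Against these genes the r of Xcl1 over the 10 tumors was 0.38 (permutation p = 0.275, adjusted p = 0.413), and against the cDC1 genes it was 0.54 (permutation p = 0.0982, adjusted p = 0.264). Both values hold the gap between the groups as well, since Xcl1 was chosen on it. The rho values were 0.321 (permutation p = 0.367, adjusted p = 0.551) and 0.539 (permutation p = 0.114, adjusted p = 0.343). Single tumors moved both r values. The first was 0.209 without non-responder 2 and 0.629 without responder 5. The second was 0.328 without non-responder 2 and 0.711 without non-responder 1, and its rho was 0.321 with a pseudocount of 0.25. Without the 2 tumors farthest from the median r was 0.50 and 0.258, and over deviations from the group means, under the same limit of depth, it was 0.165 and 0.231. Activated lymphocytes can release other cytokines together with XCL1. All 7 cytokine genes listed were higher in responders, 4 with an unadjusted p under 0.05 (median log2 fold change 0.86). Their summed level in responder 5 was 28.6 CPM, inside the non-responder range of 26.2 to 42.5 CPM. Which cells made these cytokine RNAs was not tested. The chemokine gene Ccl5 stood at 35.8 ± 20 against 16.3 ± 3.28 CPM (log2 fold change 1.15, SE 0.32, edgeR adjusted p = 0.58). Ccl3 and Ccl4, 2 further chemokine genes, had log2 fold changes of 0.59 (SE 0.27) and 0.40 (SE 0.29), and Ifng, which encodes interferon gamma, of 0.86 (SE 0.30).

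The features most like Xcl1 over the 10 tumors were Ikbkb (r = 0.887), Rabgap1l (0.885), Tm9sf1 (0.877), Tmub1 (0.864) and Pon2 (0.853), none of them from the lists. Ikbkb encodes a kinase of the NF-κB pathway. Over deviations from the group means their r was 0.46, 0.389, 0.748, 0.499 and 0.504, with Xcl1 varying within groups by no more than its counting error. They were picked as the highest of 13065 pooled values for a gene that separates the groups. High pooled values and lower values over deviations are therefore given by the choice, and nothing is read from them. Among the axis genes, the r with Xcl1 over the 10 tumors was -0.867 for Wdfy4, 0.586 for Batf3 and 0.71 for Flt3l. Over deviations from the group means it was -0.644, -0.0266 and 0.16. The axis genes were chosen with the contrast of the groups known, which sets much of the pooled values. The limit of depth for Xcl1 holds for the others, so nothing is read from either.

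Genes that steer DC development gave a median log2 fold change of 0.13 (0.07 without non-responder 7) over 12 genes, with 9 higher and 3 lower. Unadjusted p-values under 0.05 were found for 4 higher genes, Irf8, Nfil3, Id2 and Batf2, and for 1 lower gene, Zfp366. Nfil3 and Id2 both act in cDC1 development and stood at 26.9 ± 3.84 against 22.9 ± 2.07 CPM and at 59.8 ± 14.5 against 44.7 ± 9.52 CPM. Batf2, a relative of Batf3 that interferon induces, stood at 40.1 ± 9.13 against 25.3 ± 11.9 CPM (log2 fold change 0.68, SE 0.26, edgeR adjusted p = 0.586). Zeb2, which opposes the cDC1 fate, had a log2 fold change of -0.01 (SE 0.07), and Stat3, the most abundant gene, of 0.14 (SE 0.07). Irf8 and Id2 are also in the cDC1 list.

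The machinery of cross-presentation showed small differences. Of 16 genes 14 were higher in responders, with a median log2 fold change of 0.14 and a range from -0.08 to 0.27. The peptide transporter gene Tap1 had the only unadjusted p under 0.05, at 353 ± 35.7 against 298 ± 55.0 CPM (log2 fold change 0.25, SE 0.11, edgeR adjusted p = 0.604). Tap2 and Tapbp each had a log2 fold change of 0.19 (SE 0.10 and 0.09), and B2m, the MHC class I light chain and the most abundant gene, of 0.18 (SE 0.08). The products of these 4 genes work in nearly all nucleated cells, tumor cells included.

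**Figure D4:**
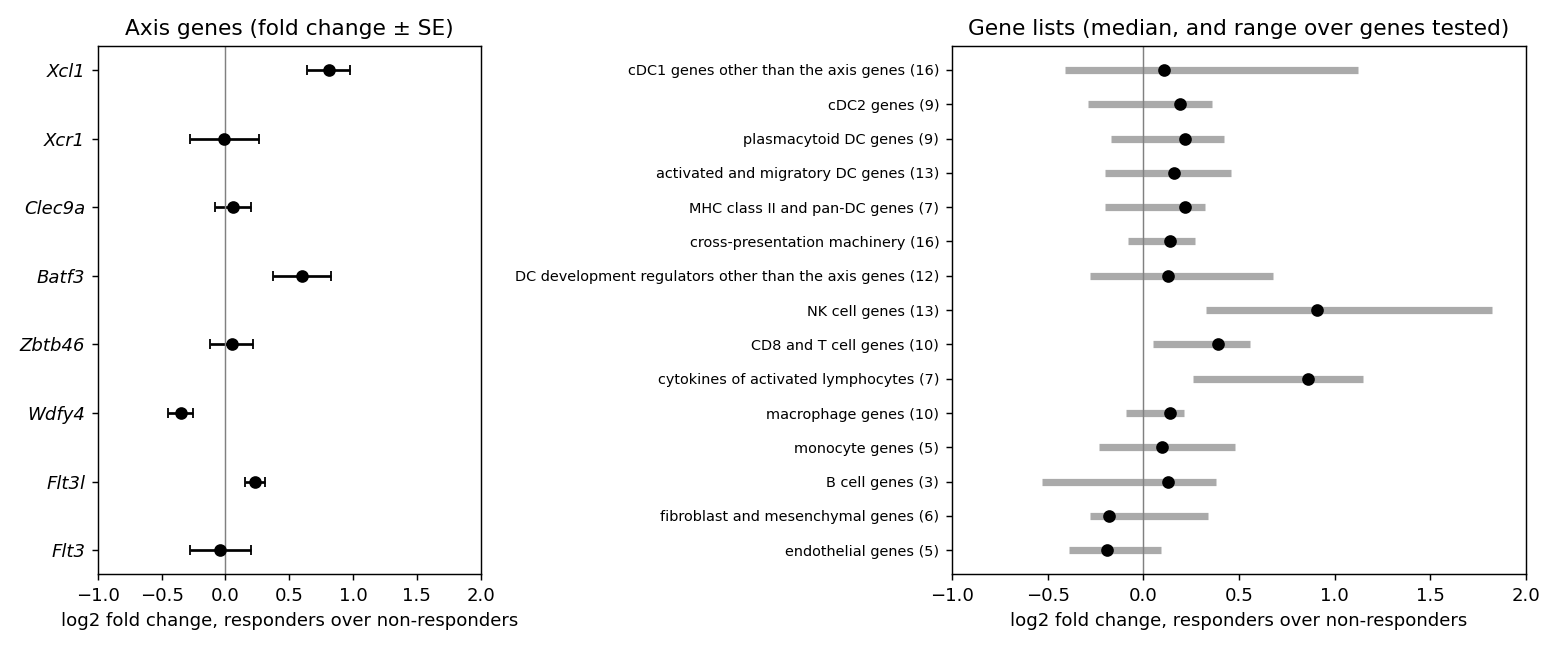
Log2 fold change of responders over non-responders (x axis) for the 8 axis genes with their SE (left), and the median (point) and range (bar) for each of 15 gene lists, with the number of genes tested in brackets (right). Xcl1 is at 0.81, Xcr1 at -0.01 and Wdfy4 at -0.35, and list medians run from -0.19 for endothelial genes to 0.91 for NK cell genes.

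Other DC subsets showed median log2 fold changes of 0.19 for 9 cDC2 genes, 0.22 for 9 plasmacytoid DC genes, 0.16 for 13 genes of activated and migratory DCs and 0.22 for 7 MHC class II and pan-DC genes. Single tumors moved these medians by more than 1.5 times. The cDC2 median was 0.32 without non-responder 1, and the plasmacytoid median was 0.05 without responder 10 and 0.11 without non-responder 3. The activated DC median was 0.09 without responder 9 or without responder 11, and the MHC class II median was 0.05 without responder 11 and 0.10 without non-responder 2. Unadjusted p-values under 0.05 were met by 2 higher genes and 1 lower gene of cDC2, by 1 higher plasmacytoid gene (Bst2), by 2 higher genes and 1 lower gene of activated DCs, and by none of the MHC class II list. The cDC2 list had 6 higher and 3 lower genes. Its smallest p was that of Esam, an adhesion gene, at 12.2 ± 1.49 against 14.9 ± 1.36 CPM (log2 fold change -0.29, SE 0.09, edgeR adjusted p = 0.58), with 4 responders below all non-responders. Its most abundant gene Notch2, a receptor gene, had a log2 fold change of -0.10 (SE 0.08). Cd209a, Mgl2, Clec10a and Irf4 had log2 fold changes of 0.30, 0.36, 0.19 and 0.36 with SE of 0.54, 0.31, 0.30 and 0.24. The costimulatory gene Cd80 stood at 6.65 ± 0.622 against 4.84 ± 1.18 CPM (log2 fold change 0.46, SE 0.15, edgeR adjusted p = 0.58), whereas Ccr7, the receptor for migration to lymph nodes, stood at 5.11 ± 1.58 and 5.14 ± 0.936 CPM. Fscn1, an actin-bundling gene, was the most abundant of its list and lower in responders, at 356 ± 30.4 against 410 ± 41.9 CPM (log2 fold change -0.20, SE 0.08, edgeR adjusted p = 0.58). Both Fscn1 and Notch2 stood far above genes such as Ccr7. The pieces also held tumor cells, and the cell source of Fscn1 and Notch2 was not tested. Itgax, which encodes CD11c, had a log2 fold change of -0.20 (SE 0.13), and H2-Aa, an MHC class II gene, of 0.32 (SE 0.20).

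Marker genes of the other cells in the tissue were summarised last. The median log2 fold change was 0.14 for 10 macrophage genes, 0.10 for 5 monocyte genes, 0.13 for 3 B cell genes, -0.18 for 6 fibroblast and mesenchymal genes and -0.19 for 5 endothelial genes. Single tumors moved these as well, to 0.07 for macrophage genes and -0.10 for endothelial genes without responder 11, and to -0.10 for fibroblast genes without non-responder 6. The monocyte median was 0.05 without non-responder 2 and 0.16 without non-responder 6. The B cell median ran from -0.04 without responder 5 to 0.29 without responder 10 and has no fixed sign. Unadjusted p-values under 0.05 were met by 2 lower fibroblast genes, 2 lower endothelial genes, and 1 higher and 1 lower monocyte gene. No macrophage or B cell gene met this. Macrophage genes summed to 1410 to 1960 CPM in responders and 1300 to 1810 CPM in non-responders, with C1qa, a complement gene, as the most abundant. Fibroblast and mesenchymal genes summed to 3620 to 4120 CPM in responders and 4030 to 5020 CPM in non-responders, led by Col3a1, a collagen gene that fibrosarcoma cells can also make. The part of these cells in the values of the axis genes was not tested.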

How the data were processed

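RNA of 10 WEHI-164 tumor pieces was sequenced as 150 bp paired-end reads. The authors estimated transcript abundances with kallisto on GRCm38, per the labels and the methods, and deposited estimated counts per gene that were not normalized. The annotation release is not given in the sources used here. Rows of 1 name were summed, counts were rounded, and the 9580 rows without a name (1.31% of counts) were kept as features. The tumors held 16002949 to 31160790 estimated counts each. A feature was fitted if its CPM passed 0.366 in 3 or more tumors, using edgeR 4.0.16 (R 4.3.3; TMM, quasi-likelihood test, Benjamini-Hochberg adjustment, threshold 0.05). DESeq2 1.42.0 and limma-voom (limma 3.58.1) were run besides. The SE was obtained by dividing the log2 fold change by the root of the F statistic. Each sample is the tumor of a separate mouse.

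The 8 axis genes and the gene lists were chosen with earlier results of these data known. Named were all 8 axis genes, the first 4, the most abundant and the smallest-p gene of the lists described at length, and the 5 features most like Xcl1, Xcr1 and Clec9a (mean CPM of at least 1). Of the 5 features most like Clec9a only the first is named in the text. Batf2 and Zfp366 fall outside this rule and were named after their values were seen. Correlations used log2(CPM + 1) and 100000 resamples over 10 tumors, or all permutations within groups. On simulated counts with 200 changed features among 15592, edgeR recovered 98% of the 4-fold and 78.6% of the 2-fold changes and also called 11 unchanged features. These rates are averages over features of all levels and hold for that number of changes. They were not taken separately for counts as low as those of most axis genes. Sequences come from RefSeq (GRCm38.p6), gene models from GENCODE vM21. Counting errors are the Poisson error of the mean count. A marker gene that was measured is not reported here.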

Additional observations from a re-analysis of the deposited data

Results flagged for a closer look

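Over 46 groups of 5 tumors, the gap of the highest or lowest tumor to its neighbour was compared with Dixon's critical value, which chance passes in about 1 of 20 groups (2.3 here), and 3 groups passed. Batf3 in non-responder 1 was 2.38 CPM, with the other non-responders at 1.21 to 1.53 CPM. The mean log2(CPM + 1) of monocyte genes was 5.51 in non-responder 2 and 5.81 to 5.92 in the other non-responders. The mean log2(CPM + 1) of fibroblast and mesenchymal genes was 8.36 in non-responder 6 and 8.09 to 8.15 in the others.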

How the results depend on the processing

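Xcl1, Batf3, Flt3l and Wdfy4 kept the sign of their log2 fold change under each alternative run, and Xcl1 stayed between 0.75 and 0.92. Xcr1, Clec9a, Flt3 and Zbtb46 changed sign when single tumors were left out, with ranges of -0.28 to 0.13, -0.01 to 0.10, -0.17 to 0.12 and -0.03 to 0.14. Features with an adjusted p under 0.05 numbered 4 with DESeq2 (Col6a1, Col6a2, Flnc and Nes), which gave no adjusted p to 14367 features, and 0 to 9 when each tumor was left out, the 9 without responder 5 and Gzmb among them. None of the axis genes was called under the alternatives that gave them an adjusted p, which DESeq2 did not. The count with an unadjusted p under 0.05 ranged from 839 without responder 11 to 2139 without responder 5. The correlation of Clec9a with cDC1 genes turned to -0.0179 with a pseudocount of 0.25, to -0.00335 without the 2 tumors farthest from the median and to -0.109 over deviations from the group means, and ranged from -0.0989 to 0.0921 when each tumor was left out. That of Flt3l with Flt3 ranged from -0.000975 (without non-responder 2) to 0.37. The cause was not tested. Counts of 14 to 92 per tumor limit Xcr1, Xcl1, Batf3, Flt3, Clec9a and Zbtb46. No paired analysis was possible because the groups share no tumor number.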
